A study of Mus musculus with 12 samples.

Results

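The oligos described here are 9 probes on arrays of mouse spleen RNA. Their sequences match a pattern for the amino acids that open framework 2 of an antibody light-chain variable region. They were found among 35852 oligos by translating each in the 3 forward frames and keeping those that hold a tryptophan, then tyrosine, phenylalanine or leucine, then glutamine or leucine, then glutamine, then lysine or arginine, with no stop codon in that frame. The oligos M400008025 and M400007654 were left out by rule, and 2 further oligos matched only in a frame with a stop codon. On the reverse strand, which does not encode the chain, 3 oligos matched. The pattern reads sequence alone, but the members were chosen with earlier results of these data known. The oligos left out are named in the rule, and M400008025 carries the motif. The files give each oligo's sequence without a gene name or genome position, so each is called by its identifier.

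The arrays were hybridised with RNA from the spleens of female mice. The groups were C57BL/6 at 4 months (n = 2) and 564 Igi, on a C57BL/6 background, at ages of 4 (n = 3), 8 (n = 3) and 12 months (n = 4). The sample labels give the 564 Igi genotype as 564+/-, while the treatment text says that mice carrying the knock-ins on both copies of both loci (564+/+) were used. That text also says that some of this colony drank water with ampicillin, metronidazole, neomycin and vancomycin, without naming the samples. C57BL/6 was sampled at 4 months alone, so at 8 and 12 months age and genotype cannot be told apart, and the same 2 C57BL/6 arrays serve in all 3 genotype comparisons. Nothing in the labels says that the samples are separate animals, so a p-value here measures the spread between samples, which may be technical. Each array carried spleen RNA in the Cy3 channel and 1 universal reference RNA in the Cy5 channel. Values are log2 of sample over reference.

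An antibody light chain has a variable region built by joining a V segment, chosen from a large set, to a J segment, followed by a constant region. Within the V segment, conserved frameworks alternate with the hypervariable loops that touch antigen, and framework 2 starts with a conserved tryptophan right after the first loop. A B cell that already has a productive light chain largely stops rearranging others. In the 564 Igi line the antibody loci carry knocked-in genes, already rearranged, for both chains of the autoantibody 564, so most of their B cells can start from 1 given pair of chains. Framework 2 oligos from different V segments can therefore reflect which V segments a spleen transcribes. This holds as far as each oligo detects its own segment, which was not tested. In whole spleen, fewer cells using a segment and less RNA per cell cannot be told apart. Spleen and B cell marker genes were not checked, since the oligos are not paired with genes.

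Differences between the members lie in their sequences, which are therefore shown in full, 5′ to 3′, with the 15 bases of the motif in capitals. In 4 members the motif starts at base 8 and most of the oligo lies downstream of it, in framework 2 and beyond.

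M400006035: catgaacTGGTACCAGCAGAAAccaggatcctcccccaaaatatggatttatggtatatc
M400006358: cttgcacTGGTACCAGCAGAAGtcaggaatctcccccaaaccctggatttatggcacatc
M400006576: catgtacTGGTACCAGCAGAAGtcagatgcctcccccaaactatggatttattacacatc
M400008572: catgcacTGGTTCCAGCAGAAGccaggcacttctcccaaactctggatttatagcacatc

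In 4 others the motif starts between base 29 and base 44, and more of the oligo lies upstream of it, toward the first loop, than downstream.

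M400001208: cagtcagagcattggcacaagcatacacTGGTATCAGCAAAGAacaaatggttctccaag
M400005376: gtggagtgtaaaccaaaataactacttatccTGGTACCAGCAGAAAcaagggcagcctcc
M400007134: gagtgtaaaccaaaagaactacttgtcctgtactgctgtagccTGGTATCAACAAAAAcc
M400010433: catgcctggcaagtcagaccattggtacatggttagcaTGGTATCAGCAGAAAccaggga

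The ninth has 50 bases, unlike the 60 of the others, and its motif starts at base 11.

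M300000308: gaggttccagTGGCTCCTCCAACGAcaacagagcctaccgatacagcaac

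The encoded residues were WYQQK in 6 members, WYQQR in M400001208, WFQQK in M400008572 and WLLQR in M300000308. The 4 oligos with the motif at base 8 were 80% to 85% identical to each other over their 60 bases. The 4 with a later motif were less alike, at 43.8% to 68% when laid over each other at the motif. M300000308 matched the other 8 at 36.2% to 47.6% of bases on the same footing, and no other oligo of the array shared 15 or more bases in a row with it. Its label as a light-chain oligo thus rests on the 5 residues of the motif alone.

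At 4 months, where age was matched, the members split. All 4 oligos with the motif at base 8 had a higher ratio in 564 Igi spleens, by 4.22-fold to 5.38-fold, and 3 of them were called higher. All 4 with a later motif had a lower ratio, by 1.58-fold to 9.35-fold, and 3 of them were called lower. Their ratios rest on a weak Cy5 signal. In 564 Igi it was well above background on 2 of 10 arrays for M400007134 and on 0 of 10 for the others. For M400005376 and M400010433 it was so on neither C57BL/6 array. M300000308 differed by -0.08 on the log2 scale. An oligo was called at a Benjamini-Hochberg adjusted p under 0.05 in a limma fit of all 12 arrays, adjusted over the 26279 oligos tested, all 9 members among them. M400005376 and M400010433 were kept for the test only through C57BL/6, the group where they are high, so their place among the falls is no separate support for the count. Of all oligos tested at 4 months, 0.0685% were called higher and 0.339% lower, 0.407% in all. For 8 of the 9 members the 564 Igi arrays lay wholly above or wholly below the C57BL/6 arrays, against 34.7% of all oligos. The median difference over the 9 members, -0.08, is that of M300000308, with the rises above it and the falls below. Over all oligos the median was 0.0097. The order of the members by motif position was noticed after the values had been seen and was not tested.

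The largest called rise was that of M400006576. Its ratio was 1.88 and 2.92 in C57BL/6, and 4.61, 4.92 and 4.96 in 564 Igi at 4 months. At 8 months it was 5.26, 4.55 and 5.33, and at 12 months 4.97, 4.96, 5.16 and 5.63. Every 564 Igi array lay above both C57BL/6 arrays, and the 2 C57BL/6 arrays differed from each other by 1.04. At 4 months the difference was 2.43 (SE 0.31, 95% interval 1.75 to 3.11, adjusted p = 0.00277). Slide 2, with its 1 C57BL/6 array and its 1 array of 564 Igi at this age, gave 3.08. The call at 4 months held whichever array was left out, with adjusted p-values of 0.00133 to 0.0358.

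M400006358 read 2.32 and 3.20 in C57BL/6, and 4.85, 4.56 and 5.14 in 564 Igi at 4 months. The values at 8 months were 5.21, 4.92 and 5.28, and those at 12 months were 4.54, 5.29, 5.02 and 5.66. As with M400006576, no 564 Igi array came down to the C57BL/6 range. The difference at 4 months was 2.09 (SE 0.31, 95% interval 1.40 to 2.78, adjusted p = 0.0110), and it was 2.82 on slide 2.

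M400008572, the member with phenylalanine in the motif, read 1.92 and 2.88 in C57BL/6, and 4.46, 4.55 and 4.58 in 564 Igi at 4 months. At 8 months the arrays gave 5.10, 3.85 and 5.23, and at 12 months 4.84, 4.64, 5.10 and 5.43. The lowest 564 Igi array, 8 months replicate 2, still lay above both C57BL/6 arrays. The difference at 4 months was 2.13 (SE 0.38, 95% interval 1.30 to 2.97, adjusted p = 0.0352), and 2.66 on slide 2.

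M400006035 had the most uneven values of the 4. It read 1.63 and 2.39 in C57BL/6, and 3.59, 3.48 and 5.19 in 564 Igi at 4 months, where replicate 3 stood well above replicates 1 and 2. At 8 months it was 4.55, 4.19 and 5.09, and at 12 months 4.30, 5.45, 5.32 and 5.07. The groups did not overlap, and the difference at 4 months was 2.08 (SE 0.49, 95% interval 1.01 to 3.15), yet the adjusted p was 0.135 and the oligo was not called. Slide 2 alone gave 3.56, and with the slide as a block the difference was 2.74 (adjusted p = 0.0274).

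The 3 called rises at 4 months fell to 1, M400006576, without C57BL/6 replicate 1 or without 564 Igi 4 months replicate 3. The call of M400008572 was also lost without 564 Igi 4 months replicate 1 or 2, or 12 months replicate 1 or 3, with adjusted p-values up to 0.233 over all arrays left out in turn. With uneven-background spots kept or with scale normalization 0 were called higher at 4 months, and from processed signals 1.

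The reference channel moved with the sample channel in 3 of these 4 oligos, although the same reference RNA was named for every array. In C57BL/6 the Cy5 signal of M400006358 above its local background was 108 to 120.3, and in 564 Igi it was 315 to 1860. That of M400006576 was 134 to 154 against 311 to 1656, and that of M400008572 was 111 to 155 against 186 to 688. Each of the 3 had a higher Cy5 signal on all 10 arrays of 564 Igi than on either C57BL/6 array. M400006035 did not do so, with 45.7 to 56.7 in C57BL/6 and 27.6 to 54.9 in 564 Igi. A higher reference signal lowers the ratio, and in the Cy3 channel alone the differences at 4 months were larger for M400006358, at 3.88 (14.7-fold, adjusted p = 0.00104), for M400006576, at 4.02 (16.3-fold, adjusted p = 6.45e-04), and for M400008572, at 3.18 (9.04-fold, adjusted p = 0.00374). For M400006035 it was 2.20 (adjusted p = 0.0895). What raised the Cy5 signals was not tested.

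In scanner units these oligos rose from signals that were already well above background on both C57BL/6 arrays. The median Cy3 signal above local background was 93.2 and 73.2 on those arrays, lower than the signal of each of these oligos there. The Cy3 signal above local background of M400006358 was 794 and 999 in C57BL/6 and lay between 9033 and 28551 in 564 Igi. For M400006576 it was 697 and 945, against 8121 to 28385. M400008572 went from 716 and 814 to between 3759 and 13174, and M400006035 from 269 and 395 to between 1155 and 3733. No spot of the sample channel was saturated on any array.

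The largest called fall was that of M400001208. Its ratio was 3.00 and 4.12 in C57BL/6, and 0.26, 0.42 and 0.34 in 564 Igi at 4 months. At 8 months it was 0.17, 0.63 and 0.29, and at 12 months 0.86, 0.49, 0.51 and 0.41. All 10 arrays of 564 Igi thus lay far below the lower C57BL/6 array. At 4 months the difference was -3.23 (SE 0.26, 95% interval -3.80 to -2.65, adjusted p = 4.27e-05), and on slide 2 it was -2.66. The Cy3 signal was 778 and 2109 in C57BL/6 and 32.7 to 64.9 in 564 Igi, where it was still well above background on 9 of 10 arrays. The Cy5 signal was lower too, at 50.8 and 131 in C57BL/6 and 5.65 to 24.0 in 564 Igi, where it was well above background on 0 of 10 arrays. In the Cy3 channel alone the difference was -4.06 (adjusted p = 1.45e-05). Leaving out any array kept the call, with adjusted p-values of 2.19e-06 to 4.37e-04. From the scanner's processed signals the difference was -2.44 (adjusted p = 0.154), and the call was lost.

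M400007134 had the C57BL/6 values closest to each other of all members, 1.22 and 1.23. In 564 Igi it read 0.22, 0.13 and 0.07 at 4 months, 0.08, 0.17 and 0.55 at 8 months, and 0.08, -0.0014, -0.06 and -0.02 at 12 months. The arrays of the 2 strains were thus well apart, with 8 months replicate 3 the highest of 564 Igi. The difference at 4 months was -1.08 (SE 0.13, 95% interval -1.36 to -0.80, adjusted p = 0.00123), on slide 2 it was -1.15, and it held whichever array was left out. The Cy3 signal was well above background on all 6 arrays of 564 Igi at 4 and 8 months and on 1 of 4 at 12 months.

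M400005376 read 0.71 and 0.62 in C57BL/6. In 564 Igi it was -0.04, -0.0078 and 0.07 at 4 months, 0.22, 0.12 and 0.02 at 8 months, and 0.13, 0.01, 0.02 and -0.06 at 12 months. The groups did not overlap, and the difference at 4 months was -0.66 (SE 0.096, 95% interval -0.87 to -0.45, adjusted p = 0.00884), with -0.64 on slide 2. It was dim in both strains, with Cy3 signals of 56.4 and 74.9 in C57BL/6 and 26.2 to 58.8 in 564 Igi, well above background on 1 of 10 arrays of 564 Igi. Its call at 4 months was lost without C57BL/6 replicate 1 or without 564 Igi 4 months replicate 1, with adjusted p-values up to 0.0948.

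M400010433 read 0.44 and 1.03 in C57BL/6. In 564 Igi it was 0.05, -0.07 and 0.05 at 4 months, -0.30, -0.01 and -0.10 at 8 months, and -0.23, 0.0038, -0.05 and -0.19 at 12 months. Both C57BL/6 arrays lay above all of 564 Igi, but they also lay 0.59 apart. In 564 Igi its Cy3 signal was not well above background on a single array, so the fold has only a bound there. By group means in the Cy3 channel it was at least 1.70-fold lower at 4 months. The fit to the ratios gave no call (adjusted p = 0.105). On slide 2 the difference in ratio was -0.39. Without C57BL/6 replicate 1 the difference in ratio was -1.02, and without C57BL/6 replicate 2 it was -0.43. Leaving out any array other than C57BL/6 replicate 1 gave no call. Such a bound is taken on normalized Cy3 signals, not on the ratio to the reference. It sets the mean of the bright group against, on each array, the lowest signal among oligos well above background or the oligo's own signal, whichever is higher. It takes no account of the spread between arrays.

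The normexp offset of 50 added to each signal pulls the ratios of dim oligos toward 0. The scanner's processed signals carry no such offset, but their background correction and normalization differ as well. From them the differences at 4 months were -2.80 for M400007134 (adjusted p = 0.00448) and -2.81 for M400005376 (adjusted p = 0.0840). With the offset they were -1.08 and -0.66. M400010433 was lower from the processed signals too and was called (adjusted p = 0.00968), with no fold given since the fold has only a bound. M400001208, dim in 564 Igi, moved the other way, from -3.23 with the offset to -2.44 from the processed signals. With an offset of 16 in place of 50 and the other steps unchanged, the difference of M400001208 at 4 months was -3.36 (adjusted p = 8.40e-05). How the offset and the other steps share in the shifts to the processed signals was not tested.

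M300000308, with the least light-chain-like sequence, ranged from -0.23 to -0.13 in C57BL/6 and from -0.54 to -0.13 in 564 Igi. The groups overlapped at every age. The difference at 4 months was -0.08 (SE 0.13, 95% interval -0.38 to 0.21, adjusted p = 0.837), and on slide 2 it was -0.29. The Cy3 signal was 54.3 to 58.1 in C57BL/6 and 60.3 to 121 in 564 Igi, well above background on every array. The sign of its difference changed with the processing.

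The same 8 members were called at 8 and at 12 months, 4 higher and 4 lower at each age, against the C57BL/6 arrays of 4 months. Of the 4 lower, M400005376 and M400010433 were well above background on no 564 Igi array of these ages and entered the test through C57BL/6 alone. Over all oligos, 0.129% were called higher and 0.495% lower at 8 months (0.624% in all), and 0.32% and 0.586% at 12 months (0.906% in all). Again 8 of 9 members did not overlap, where 28.8% and 20.3% of all oligos did not. The largest called rise was M400006576 at 8 months, at 2.65 (6.27-fold, SE 0.31, adjusted p = 0.00115), and M400006035 at 12 months, at 3.03 (8.14-fold, SE 0.47, adjusted p = 0.00785). M400001208 remained the largest called fall, at -3.20 (9.17-fold, adjusted p = 4.39e-05) and -2.99 (7.97-fold, adjusted p = 4.45e-05). From the scanner's processed signals it was 4.60-fold lower at 8 months (adjusted p = 0.162) and 2.38-fold lower at 12 months (adjusted p = 0.365), and neither was called.

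For M400006035 the 3 differences from C57BL/6, at 4, 8 and 12 months in that order, were 2.08, 2.60 and 3.03. For M400006358 they were 2.09, 2.38 and 2.37, and for M400006576 2.43, 2.65 and 2.78. Those of M400008572 were 2.13, 2.33 and 2.61. M400001208 gave -3.23, -3.20 and -2.99, and M400007134 gave -1.08, -0.96 and -1.22. These comparisons share their C57BL/6 arrays and are not independent of each other. Among the dim oligos, by the bounds in the Cy3 channel and the p-values of the ratios, M400005376 was at least 1.44-fold lower at 8 months (adjusted p = 0.0273) and at least 1.48-fold lower at 12 months (adjusted p = 0.00442). M400010433 was at least 1.74-fold lower (adjusted p = 0.0304) and at least 1.69-fold lower (adjusted p = 0.0192).

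Slides 2 and 3 each held a C57BL/6 array, and on both of them every called member differed in the same direction as in the whole set at 8 and 12 months. On these slides the differences of M400006576 were 2.67 and 2.41 at 8 months and 3.08 and 2.47 at 12 months. Those of M400001208 were -2.37 and -3.83 at 8 months and -2.51 and -3.66 at 12 months, larger on slide 3, whose C57BL/6 array had the higher ratio. Slide 1 held no C57BL/6 array. Without C57BL/6 replicate 1, 2 members were called higher at 8 months and 2 at 12 months. The 8-month rises also came to 2 without 8 months replicate 1 or 3, and the 8-month falls to 2 without C57BL/6 replicate 2, 8 months replicate 3 or 12 months replicate 3.

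Within 564 Igi, none of the 9 members was called between ages. In the limma fit the counts at an unadjusted p under 0.05 were 0 for 8 against 4 months, 1 for 12 against 4 months and 1 for 12 against 8 months, where 3.14%, 7.64% and 4.22% of all oligos passed. Of all oligos, 0%, 0.00381% and 0% were called in these comparisons. The 4 oligos with the motif at base 8 had higher means at 12 than at 4 months, by 0.28 to 0.95, a sign that turned for 3 of them with median centring and for 2 with scale normalization. The largest of these was M400006035, with a difference of 0.95 (SE 0.41, 95% interval 0.05 to 1.84, adjusted p = 0.647), and replicate 3 at 4 months lay inside the range at 12 months. M400007134 was lower at 12 than at 8 months by a difference of -0.26 (SE 0.11, 95% interval -0.50 to -0.03, adjusted p = 0.990), and those arrays did not overlap. In the 3 age comparisons 0 members, 1 member (M400008572) and 1 member (M400007134) did not overlap, against 9.22%, 8.82% and 4.63% of all oligos. The interval of M400006035 reaches to 1.84 on the log2 scale, so the missing calls do not show equal levels.

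Of the oligos closest in sequence to M400006358, M400008130 had a difference of the opposite sign. With M400008130 it shares 26 bases in a row and 53 of 60 bases in all. The pair is shown with the bases that differ in capitals.

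M400006358: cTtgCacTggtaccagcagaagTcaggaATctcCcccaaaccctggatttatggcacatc
M400008130: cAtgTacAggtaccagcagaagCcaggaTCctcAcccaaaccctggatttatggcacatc

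Counted from the 5′ end, with the base of M400006358 first, the differences are T2A, C5T, T8A, T23C, A29T, T30C and C34A. T8A falls in the tryptophan codon of the motif, and so M400008130 is not a member. Its ratio was 2.47 and 2.72 in C57BL/6, and 0.40, 0.53 and 1.54 in 564 Igi at 4 months, 0.71, 0.92 and 1.24 at 8 months, and 0.53, 1.51, 0.75 and 1.62 at 12 months. All 10 arrays of 564 Igi lay below both C57BL/6 arrays, where those of M400006358 all lay above. The difference at 4 months was -1.77 (SE 0.37, 95% interval -2.58 to -0.96) and was not called (adjusted p = 0.0857), nor was it at 8 months (-1.64, adjusted p = 0.0924) or 12 months (-1.49, adjusted p = 0.0844). The difference between these 2 oligos was not tested.

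M400008025, left out by rule, overlaps M400006358 with a shift of 15 bases and is identical to it at 43 of 45 bases of the overlap, with G27A and T30C as the differences. It moved with M400006358, by 3.05 at 4 months (SE 0.36, adjusted p = 0.00126), and M400007654, the other oligo left out, rose by 3.02 (adjusted p = 1.86e-04). M400006952, which shares 15 bases in a row with M400006358 and 40 of 48 overlapping bases, rose by 2.31 (SE 0.28, adjusted p = 0.00193). Oligos this alike can hybridise with each other's transcripts, and how far the members share signal was not tested.

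The other members had fewer close relatives. M400005376 and M400007134, which both fell, share 15 bases in a row upstream of the motif. M400005376 also shares 17 with M400006035, across the motif, and the differences of those 2 oligos had opposite signs. It shares 15 with each of M400006358, M400006576 and M400008025, which were higher too. M400006576 shares 22 bases in a row with M400008025 and 21 with M400006358, and each of these was called higher at 4 months. M400007134 shares 25 bases in a row with M400010640, which fell by 1.78 at 4 months (adjusted p = 2.35e-04). M400008572 shares 15 bases in a row with M400008130, and 51 of 60 bases in all, with signs opposed as for M400006358. It also shares 15 with M400008151, which fell by 1.03 (adjusted p = 9.50e-04), and with M400010504, which was not tested because it was not well above background on all arrays of any group. M400001208, M400010433 and M300000308 share no run of 15 bases with any other oligo.

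Other antibody chain oligos, found by similar protein patterns chosen with earlier results of these data known, were mostly lower in 564 Igi at 4 months where they lay elsewhere in light-chain variable regions. Of 12 at the start of framework 1, 1 was called higher and 6 lower, with a median difference of -1.34. Of 9 at the end of framework 3, 0 were called higher and 7 lower (median -3.36). The 1 oligo in the body of framework 3 was called lower, by 5.97. Of 5 J segment oligos, 0 were called higher and 4 lower (median -4.32). Over all oligos, 0.0685% were called higher and 0.339% lower, and the median was 0.0097. Framework 2 thus held 3 of the 4 called rises among these 36 light-chain V and J oligos, a count that was not tested. The count depends on the rule and the patterns. It leaves out M400008025, which carries the motif, M400007654, and M400006952, which is not among the 36. Each of these was called higher at 4 months.

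The constant region of the kappa light chain, which every kappa chain carries whichever V segment it uses, was covered by 2 oligos. M400009426 was higher by 1.59 at 4 months (adjusted p = 0.173) and M400010430 by 1.24 (adjusted p = 0.260), and neither was called. At 12 months both were called higher, by 2.27 (adjusted p = 0.0164) and 1.90 (adjusted p = 0.0446). No oligo matched the lambda constant region patterns. Framework 2 of heavy chains gave 17 oligos, of which 16 were tested and 0 called, with differences from -0.45 to 1.5 at 4 months. Framework 2 of T cell receptor chains gave 6 oligos, 0 of them called, with differences from -0.29 to 0.06. At an unadjusted p under 0.05 in limma, 2 of the 16 heavy-chain oligos, 0 of the 6 T cell receptor oligos and 2 of the 2 kappa constant oligos passed at 4 months, where 12.6% of all oligos did.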

How the data were processed

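Spleen RNA of 12 samples, labelled with Cy3, was hybridised with a universal reference RNA labelled with Cy5 on 12 Agilent arrays, without a dye swap, per the labels. Arrays were quantified with Feature Extraction 11.5.1.1, per the file headers. The deposited intensity columns hold each spot's mean brightness and median local background, unnormalized, and the scanner's processed signals, which were background-subtracted and dye-normalized, per the file headers. The deposited log10 ratios, reference over sample, recur in the series table within 0.005. The deposited flag columns mark spots above background, saturated or uneven.

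Here, normexp (offset 50) and loess were run in limma 3.58.1 (R 4.3.3), giving log2 of sample over reference. From 17 to 80 spots per array with an uneven signal or background were left out. The 26290 oligos well above background in Cy3 on every array of 1 group or more were kept, and 26279 could be tested in lmFit and eBayes over all 12 arrays with 8 residual degrees of freedom. From 69.4% to 75.9% of oligos were well above background in Cy3 on 11 arrays and 91.2% on 564 Igi 4 months replicate 1. The number of arrays limits the precision. The slide was not in this fit. It entered as a block in an alternative, and differences were also taken within slides.

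Translation used Biopython 1.88. Members, lists and the repair of uneven spots were chosen with earlier results of these data known. Every member is named. Relatives are oligos sharing an identical run of at least 15 bases with a member, and not every such run is given. The statistics were tested on simulated data. Marker lists of cell types and genome positions were not used here, since the files do not pair oligos with genes. The alternatives were other background corrections, normalizations, filters, fits and blocks, and leaving out each array.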

Additional observations from a re-analysis of the deposited data

How the results depend on the processing

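Over 24 alternatives, the 9 members gave 636 values in the 3 genotype comparisons. Of these, 524 kept their direction and their side of the threshold, 98 kept the direction and lost the call, 6 gained a call and 8 changed sign. The sign changed for M300000308 alone, to 0.0537 with uneven-background spots kept, 0.0834 from processed signals, 0.0160 with median centring, 0.38 in the Cy3 channel alone and 0.0835 from the deposited series table at 4 months, to 0.33 and 0.25 in the Cy3 channel alone at 8 and 12 months, and to 0.00612 at 12 months without 564 Igi 12 months replicate 2, in a range of -0.137 to 0.00612 over the arrays left out. Counts called higher were 3, 4 and 4 at 4, 8 and 12 months. They were 0, 0 and 2 with uneven-background spots kept, 1, 1 and 3 both from processed signals and from the deposited series table, and 0, 0 and 0 with scale normalization between arrays, under which 0 of all oligos were called higher and 38, 42 and 44 lower. Using only the arrays compared gave 2 higher and 1 lower at 8 months. Counts called lower, 3, 4 and 4, were 0, 0 and 0 with a filter on both channels, which tested 5 members. They were 2, 2 and 2 from processed signals, the deposited table and scale normalization, and 2 at 8 months with median centring, which moved the median of all oligos to 0.22 at 4 months. Leaving out each array gave 1 to 3, 2 to 4 and 2 to 4 higher and 2 to 3, 2 to 4 and 3 to 4 lower. What moved these counts was not tested, except that the filter on both channels tests fewer members. No alternative called a member between ages.

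With the replicate number as a block, 2 members were called higher and 3 lower at 4 months, 3 and 3 at 8 months and 4 and 4 at 12 months. Between groups, deviations from the group means correlated at -0.23 to 0.29 (median -0.036) over 15 pairs of same-numbered arrays. Over 38 pairs with other numbers they correlated at -0.38 to 0.30 (median 0.0025). With so few arrays per group, this cannot settle whether the numbers pair the samples. Arrays on the same slide correlated at a median of 0.13 over 16 pairs.

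The dim members, M400005376 and M400010433, are limited by signal over background in 564 Igi, and 2 C57BL/6 arrays limit every genotype comparison.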

Other observations

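Some members carry identifiers next to those of other light-chain oligos, which was noticed after the values had been seen and was not tested. M400006575, at the start of framework 1, was higher at 4 months by 2.58 (SE 0.38, adjusted p = 0.00976), where M400006576 was higher by 2.43. M400001209, at the end of framework 3, was lower by a difference of -3.63 (SE 0.19, adjusted p = 6.77e-07), beside -3.23 for M400001208. M400007133, at the start of framework 1, gave -2.38 (SE 0.28, adjusted p = 0.00121), beside -1.08 for M400007134. In these 3 pairs both oligos moved the same way, at 8 and 12 months as well. The ratio of M400007133 was far below 0 in both strains, at -3.58 ± 0.090 (SD, n = 2) in C57BL/6 and -5.97 ± 0.16 (SD, n = 3) in 564 Igi at 4 months, so that the spleen signal was far under that of the reference.

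No member had an outlying array among the 4 arrays of 564 Igi at 12 months by Dixon's test, which chance flags in about 1 in 20 groups.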
